A study of Malus domestica with 6 samples.

Results

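Apple genes that are neighbours on a chromosome were searched for runs, defined here as 4 or more consecutive genes whose mean expression differed at least 2-fold between Jonagold and Granny Smith in the same direction. A gene entered the search when it averaged 1 FPKM or more across both cultivars and its identifier named one of the 17 chromosomes, FPKM being the fragments of a gene scaled to its length and to the mapped reads of its library. These are called kept genes, and they numbered 20345 of the 44856 genes listed on chromosomes and of 46558 genes listed in all. Neighbours were ordered by their GDDH13 identifiers, and the ratio set the Jonagold mean against the Granny Smith mean, each with 0.1 FPKM added. The search found 85 runs with 419 members, which is 2.06% of the kept genes. Since the ratio of the cultivars chose the members, their cultivar differences are given below as a description, with no test.

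The libraries came from the pulp of unbagged, fully ripe fruit of Jonagold, whose skin is red striped, and of Granny Smith, whose skin is green. Both cultivars stood on M26 rootstock at a single station and were picked in the same season, and each of the 3 libraries per cultivar was made from a separate pool of fruits. The comparison therefore rests on 1 orchard and on 1 stage as the study names it. The study measured more internal ethylene in Jonagold and more carbon dioxide production in Granny Smith, so ripening state and cultivar cannot be told apart. Pulp is also a mixture in which fewer cells of a type and less RNA per cell cannot be told apart. The files pair no identifier with a gene name, so markers of pulp could not be checked, and a gene has a name below only where the study's own tables give one.

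Genes that lie side by side on a plant chromosome are often tandem duplicates, copies of one ancestor that can keep the same enzyme activity and the same pattern of expression. Neighbours of unrelated sequence can also share open or closed chromatin, and a large insertion or deletion present in one cultivar and not in another covers several neighbours together. GDDH13 is a doubled haploid derived from Golden Delicious, and Jonagold is a cross of Golden Delicious with Jonathan. In the study's own mapping, however, every Jonagold library had a smaller share of its clean reads mapped than every Granny Smith library. Granny Smith is a cooking and dessert apple of Australian origin with its own parentage.

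Whole reads could be recovered from the FPKM values, up to a divisor that all libraries of a gene share, for 34278 of the 34279 genes above 0, and for all 419 members. They summed to between 14192619 and 16352770 in Jonagold libraries and to between 17080764 and 17257525 in Granny Smith libraries. The FPKM values of a library added up to between 755644 and 800812 in Jonagold and to between 554856 and 599617 in Granny Smith, a gap that bears on the direction of the runs.

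Of the 85 runs, 65 with 328 genes were higher in Jonagold and 20 with 91 genes were lower. Among all 20345 kept genes, 15.1% were at least 2-fold higher in Jonagold and 12.3% were at least 2-fold lower. The runs held 10.7% of the higher kept genes and 3.63% of the lower ones. This split depended on the scaling. After quantile normalization, which gives all libraries the same distribution of values, there were 87 runs, 59 higher in Jonagold and 28 lower. With the FPKM totals of the 6 libraries made equal, the median log2 ratio of all kept genes was -0.39 in place of 0.01, and 34 runs were higher in Jonagold and 70 were lower. The kept genes past the ratio shifted in the same way, to 10.9% higher and 20.5% lower. Equal totals lower the ratios of all genes by about the same amount, so that the lower runs had to stay whole, while 34 of the 65 higher runs kept at least 1 member in a run and 26 of them stayed whole.

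**Figure D1:**
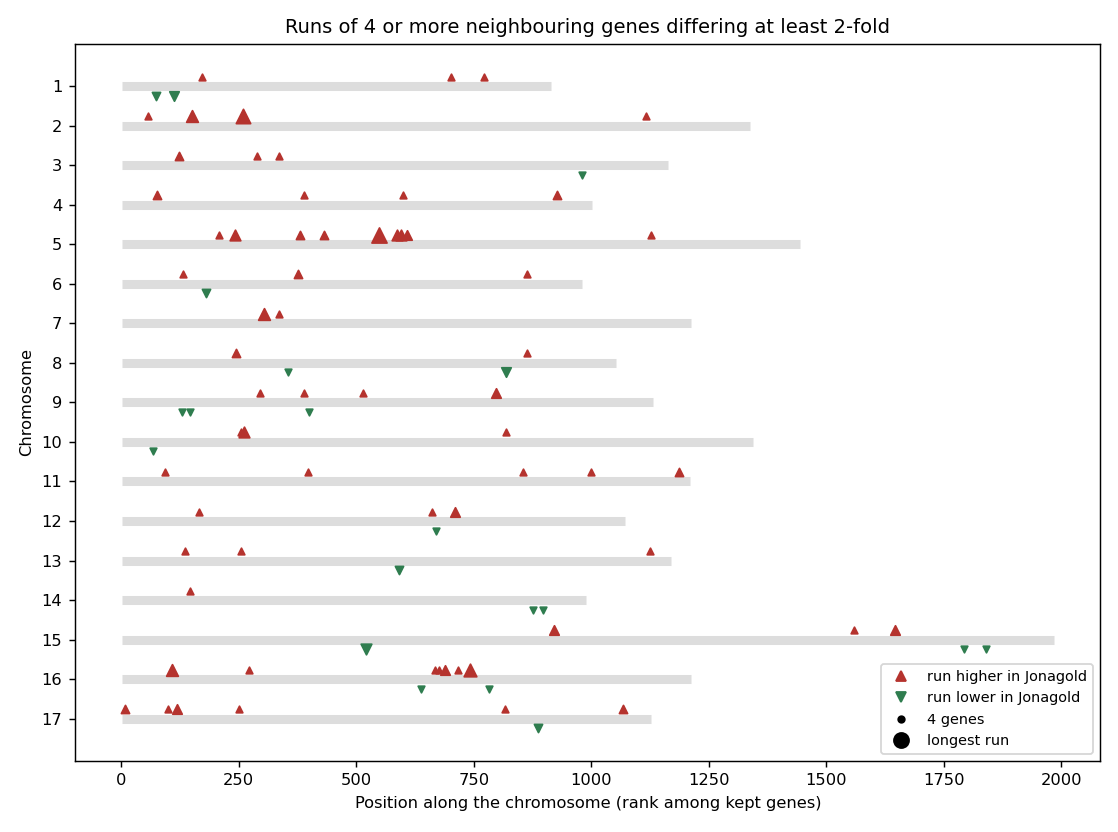
Each grey bar is a chromosome, drawn over its kept genes in order of identifier (horizontal axis, rank among kept genes), red triangles pointing up mark runs higher in Jonagold and green triangles pointing down mark runs lower in Jonagold, with the symbol area growing with the number of genes. Higher runs lie on all 17 chromosomes, and chromosomes 2, 4, 5, 7 and 11 hold no lower run.

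Most runs were short. Of the 65 higher runs 38 had 4 genes, 10 had 5, 7 had 6, 4 had 7, 3 had 8, and single runs had 9, 11 and 12 genes. Of the 20 lower runs 13 had 4 genes, 4 had 5, 2 had 6 and 1 had 7. Just short of the definition, 179 stretches of exactly 3 kept genes differed at least 2-fold in one direction. The members nearest to the threshold on its inner side were MD11G1107500, with means of 3.45 FPKM in Jonagold and 1.67 FPKM in Granny Smith, and MD05G1047200, with 4.48 and 2.19 FPKM, both 2.0-fold higher in Jonagold. Just outside it, next to a run, MD15G1349100 had means of 3.55 FPKM in Jonagold and 1.73 FPKM in Granny Smith, and MD13G1271600 had 10.3 and 5.21 FPKM in that order. With the added 0.1 FPKM their folds were 1.996 and 1.97, and MD15G1349100 was under 2-fold only through that addition.

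**Figure D2:**
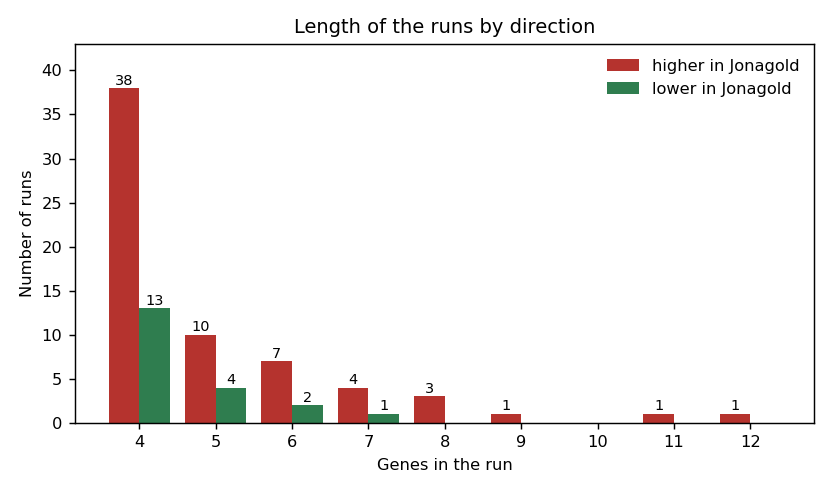
Bars give the number of runs (vertical axis) with each number of genes (horizontal axis), red for runs higher in Jonagold and green for runs lower in Jonagold. All runs of 8 or more genes, 6 in number, were higher in Jonagold.

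The longest run lay on chromosome 5, from MD05G1135700 to MD05G1137400, with 12 kept genes among 18 listed ones, all higher in Jonagold. Per-library values are given here and below in the order of libraries 1, 2 and 3 of each cultivar. MD05G1137400, the member with the largest ratio, had 13.4, 13.7 and 16.6 FPKM in Jonagold, against 0, 0.22 and 0 FPKM in Granny Smith. MD05G1136400, with the smallest ratio and the highest mean, had 12, 10.8 and 13 FPKM in Jonagold and 4.97, 1.82 and 3.59 FPKM in Granny Smith, a 3.38-fold difference. The other 10 members averaged between 2.09 and 6.72 FPKM in Jonagold and between 0 and 0.58 FPKM in Granny Smith. The cultivars overlapped in none of the 12 genes, and 6 of them had 3 reads or fewer in every Granny Smith library. Leaving out Jonagold 2 left 9 members in a run, and leaving out Jonagold 1 or Jonagold 3 left 10.

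The run of 11 genes on chromosome 2, from MD02G1050200 to MD02G1052900, spanned 28 listed genes, of which 17 were too low to be kept. MD02G1050800 led it in level and in ratio, with 221, 181 and 188 FPKM in Jonagold and 3.56, 3.66 and 2.72 FPKM in Granny Smith, 57.6-fold apart. MD02G1050200, the smallest ratio, had 15.6, 47.1 and 17.9 FPKM in Jonagold and 10.7, 9.74 and 11.8 FPKM in Granny Smith, 2.49-fold apart. The other 9 members were low, with Jonagold means between 2.11 and 5.04 FPKM and Granny Smith means between 0 and 0.276 FPKM. In 7 of the 11 genes every Granny Smith library had 3 reads or fewer, so that their folds are lower bounds, between at least 5.19-fold for MD02G1051100 and at least 34.8-fold for MD02G1051200, set against 3 reads in each Granny Smith library. With those genes at their bounds the median log2 ratio of the run was 3.05, and with the added 0.1 FPKM alone it was 4.58. Leaving out any Jonagold library left 8 members in the run.

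**Figure D3:**
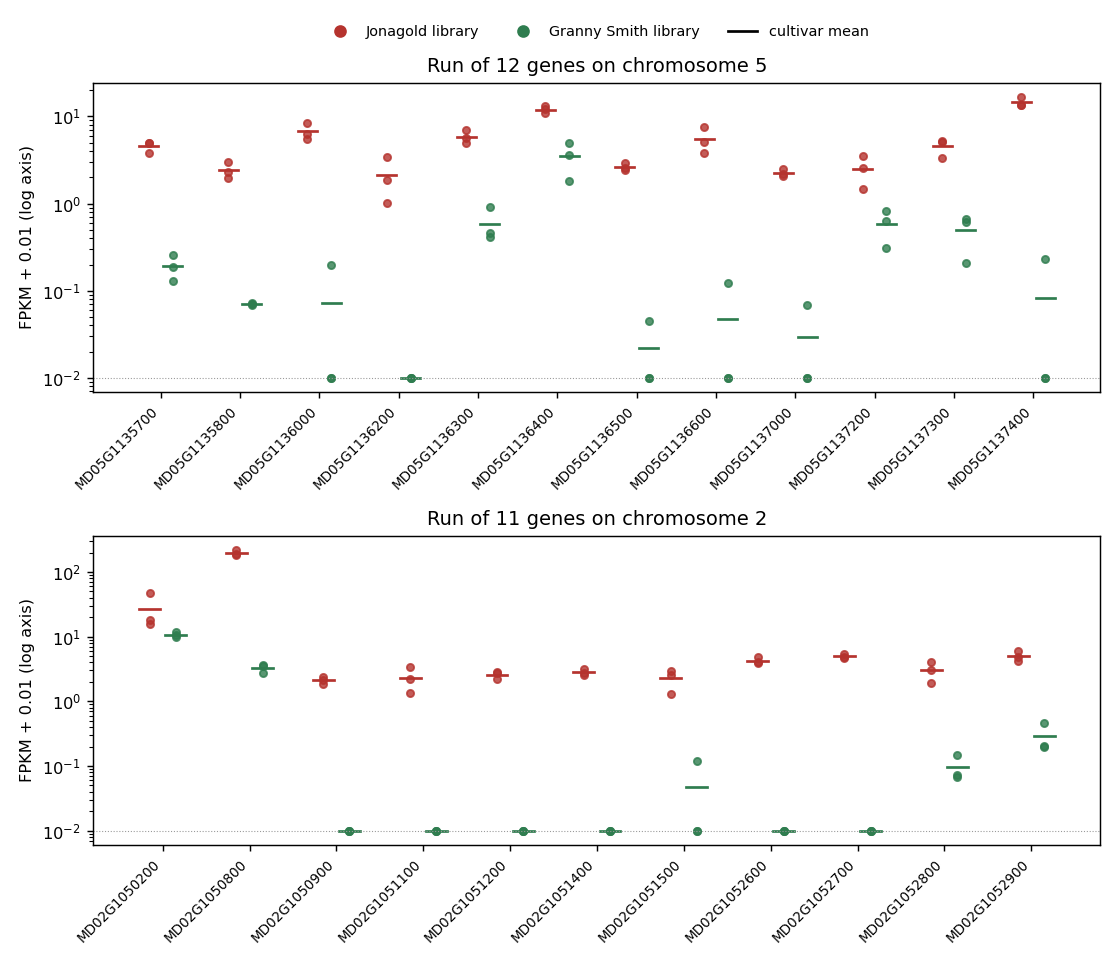
Points are libraries, red for Jonagold and to the left, green for Granny Smith and to the right, and short lines are cultivar means. The vertical axes are logarithmic and show FPKM with 0.01 added, so that values listed at 0 sit on the dotted line at 0.01. In the 12 genes of the chromosome 5 run and the 11 genes of the chromosome 2 run every Jonagold library lies above every Granny Smith library.

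Chromosome 16 held a run of 9 genes from MD16G1160000 to MD16G1161400, and with it the most abundant transcript of any run. MD16G1160700 reached 15230.0, 28399 and 23415 FPKM in Jonagold and 2638, 4033 and 2662 FPKM in Granny Smith, 7.18-fold apart. MD16G1160500, with the largest ratio, had 2697, 3049.8 and 3315 FPKM in Jonagold and 11.9, 42.6 and 2.91 FPKM in Granny Smith, 157-fold apart. MD16G1161100, with the smallest, had 0.562, 32 and 10.1 FPKM in Jonagold and 3.63, 2.48 and 3.48 FPKM in Granny Smith. The last gene shows a division within the run. In 5 members the cultivars did not overlap, while in the other 4, MD16G1160000, MD16G1160100, MD16G1161100 and MD16G1161400, Jonagold 1 lay below at least 2 of the Granny Smith libraries. Jonagold 1 was below the mean of the other Jonagold libraries in 9 of the 9 members, by a median of 1.05 on the log2 scale. Without Jonagold 2, 6 members stayed in a run.

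By median ratio, the 3 foremost higher runs were all on chromosome 1. The first, from MD01G1195000 to MD01G1195500, had 4 kept genes among 6 listed. MD01G1195200 was its abundant member, with 1546, 1344 and 1385 FPKM in Jonagold and 158, 112 and 84.6 FPKM in Granny Smith, a 12-fold difference. MD01G1195500 had 29.1, 13.5 and 13.3 FPKM in Jonagold against 0.505, 0.104 and 0.068 FPKM in Granny Smith, 57.5-fold apart. The remaining 2 were at 3 reads or fewer in Granny Smith. MD01G1195000 had 18.7, 4.81 and 4.39 FPKM in Jonagold and 0.104, 0 and 0 FPKM in Granny Smith, at least 31-fold higher. MD01G1195100 had 19.2, 5.47 and 5.72 FPKM in Jonagold and 0.112, 0.107 and 0.0527 FPKM in Granny Smith, at least 62.4-fold higher. Jonagold 1 was the highest Jonagold library in all 4 genes, and Granny Smith 1 the highest Granny Smith library in all 4.

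The run from MD01G1051900 to MD01G1052200 consisted of 4 genes with no other listed gene between them. Its first gene is MdOMT-1, which the study annotates as an O-methyltransferase of phenylpropanoid metabolism, a class of enzyme that moves methyl groups onto hydroxyl groups of its substrates. MdOMT-1 had 3726, 2886 and 3317 FPKM in Jonagold and 36.1, 23.1 and 35.9 FPKM in Granny Smith, 104-fold apart. MD01G1052200 had 24.6, 14.4 and 20.1 FPKM in Jonagold and 0.462, 0.442 and 0.311 FPKM in Granny Smith, 39.3-fold apart. Between them, MD01G1052100 had 14.2, 8.8 and 9.03 FPKM in Jonagold and 0.139, 0.442 and 0.261 FPKM in Granny Smith. Every Jonagold library thus stood above every Granny Smith library in the abundant gene and in its low neighbours. MD01G1052000 had 2.71, 3.61 and 3.99 FPKM in Jonagold and 0, 0.0373 and 0 FPKM in Granny Smith, at least 30.4-fold higher. The kept genes on both sides of the run were not higher in Jonagold. MD01G1051700 before it averaged 19.2 FPKM in Jonagold and 24.2 FPKM in Granny Smith, and MD01G1052300 after it averaged 21.4 and 34.8 FPKM in the same order.

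Farther along chromosome 1, the run from MD01G1211500 to MD01G1212100 held the member with the largest ratio of all. MD01G1211500 had 60, 81.3 and 75.5 FPKM in Jonagold and 0.0242, 0.0231 and 0.0455 FPKM in Granny Smith, where no library had more than 3 reads, and it was at least 1032-fold higher in Jonagold. MD01G1211600 had 65.1, 67.4 and 66.1 FPKM in Jonagold and 0.828, 1.08 and 0.993 FPKM in Granny Smith, 62.1-fold apart. The other members were lower in level. MD01G1212000 had 6.93, 6.64 and 4.71 FPKM in Jonagold and 1.34, 1.59 and 1.34 FPKM in Granny Smith, and MD01G1212100 had 5.83, 6.05 and 4.9 FPKM in Jonagold and 0.134, 0.428 and 0.295 FPKM in Granny Smith. All 4 genes of each of these chromosome 1 runs stayed in a run when any library was left out and under equal FPKM totals.

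The higher run with the highest median level lay on chromosome 5, from MD05G1282600 to MD05G1283000. MD05G1282600 had 835, 547 and 559 FPKM in Jonagold and 157, 101 and 117 FPKM in Granny Smith, 5.17-fold apart. MD05G1282700 had 233, 139.6 and 114 FPKM in Jonagold and 15, 6.82 and 12.1 FPKM in Granny Smith, 14.2-fold apart. These genes were highest in library 1 of both cultivars. MD05G1282900 had 10.9, 9.84 and 10.4 FPKM in Jonagold and 3.96, 3.84 and 3.97 FPKM in Granny Smith. MD05G1283000 had 48, 31.2 and 38.9 FPKM in Jonagold and 13.5, 12.9 and 13.4 FPKM in Granny Smith, 2.96-fold apart. The run was lost under equal FPKM totals.

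Among the 97 genes that the study names, which are genes of its pathways of volatile formation and 3 transcription factors, 80 were kept and 8 of these lay in 5 runs. All 80 were past the ratio, 59 higher in Jonagold and 21 lower. Runs held 3 of the 59 and 5 of the 21, beside 10.7% and 3.63% of all kept genes past the ratio in those directions. Of the 5 lower ones, 4 lay in a single run. The named genes were chosen by the study on these libraries, so their direction is no independent evidence. For those in runs the study prints FPKM many times higher than the deposited FPKM used here. The levels below therefore cannot be set against the printed ones, and the reason was not tested. Beside MdOMT-1, the higher runs held a lipoxygenase, MdLOX-10, and an acetolactate synthase, MdALS. Lipoxygenases add oxygen to unsaturated fatty acids at the start of the path to straight-chain aldehydes and alcohols, and acetolactate synthase opens the synthesis of branched-chain amino acids.

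MdLOX-10, MD09G1069500, had 1221, 1108 and 1226 FPKM in Jonagold and 39.2, 36.9 and 19 FPKM in Granny Smith, 37.3-fold apart, and it began a run that ended at MD09G1070000. MD09G1069700 had 9.29, 12.8 and 8.49 FPKM in Jonagold and 0, 0.146 and 0 FPKM in Granny Smith, at least 23-fold higher. MD09G1069800 had 34.3, 31.4 and 29.9 FPKM in Jonagold and 16.5, 11.1 and 11.1 FPKM in Granny Smith, 2.46-fold apart. The fourth gene fell between these in ratio. MD09G1070000 had 11.4, 7.1 and 6.55 FPKM in Jonagold and 1.15, 1.44 and 1.64 FPKM in Granny Smith, 5.6-fold apart. The next kept gene, MD09G1070300, differed in the other direction, with means of 2.94 FPKM in Jonagold and 9.63 FPKM in Granny Smith. Under equal FPKM totals none of the 4 genes remained in a run.

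MdALS, MD06G1028700, closed a run that began at MD06G1027900 and had 39.2, 39.5 and 39.7 FPKM in Jonagold and 16, 17.4 and 13.7 FPKM in Granny Smith, 2.5-fold apart. MD06G1027900 had 5.6, 3.71 and 3.55 FPKM in Jonagold and 0.631, 2.33 and 0.51 FPKM in Granny Smith, 3.49-fold apart. The differences in this run were the mildest of the 5 that hold a named gene. MD06G1028200 had 10.5, 12.4 and 10.2 FPKM in Jonagold and 3.87, 4.8 and 5.89 FPKM in Granny Smith. MD06G1028600 had 4.16, 2.29 and 2.2 FPKM in Jonagold and 0.932, 0.708 and 0.852 FPKM in Granny Smith, 3.21-fold apart. This run too was absent under equal totals.

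Of the 20 lower runs, the one with the largest median ratio consisted of alcohol dehydrogenases throughout. Alcohol dehydrogenases interconvert aldehydes and alcohols, and the study names all 4 members of the run from MD10G1013800 to MD10G1014500 on chromosome 10. MdADH-3, MD10G1013800, had 0.291, 0.173 and 0.245 FPKM in Jonagold and 16.4, 29.9 and 22.4 FPKM in Granny Smith, 68.5-fold lower in Jonagold. MdADH-1, MD10G1014500, had 0.0823, 0.0733 and 0.0415 FPKM in Jonagold, 2 reads at most, and 12.6, 11.8 and 13.2 FPKM in Granny Smith, at least 105-fold lower. The inner genes of the run kept more of their level in Jonagold. MdADH-6, MD10G1013900, had 4.32, 1.47 and 1.73 FPKM in Jonagold and 16.5, 27.2 and 20.5 FPKM in Granny Smith, 8.25-fold lower. MdADH-4, MD10G1014200, had 10.7, 4.78 and 6.85 FPKM in Jonagold and 49.2, 80 and 55.1 FPKM in Granny Smith, 8.16-fold lower. In 3 of the 4 genes Granny Smith 2 was the highest Granny Smith library and in all 4 Jonagold 1 was the highest Jonagold library. How reads shared by near-identical copies were assigned is not given in the sources used here, so the division of expression among these 4 genes is uncertain. The run stayed whole whichever library was left out and after quantile normalization. It was whole under equal FPKM totals too, but that scaling could not break a lower run.

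MdCCoAR, MD17G1222400, the other named gene of the lower runs, is annotated by the study as a cinnamoyl-CoA reductase, the type of enzyme that leads from phenylpropanoid acids towards lignin monomers. It had 29.4, 27.6 and 21 FPKM in Jonagold and 101, 70.5 and 83.1 FPKM in Granny Smith, 3.25-fold lower in Jonagold. MD17G1222500 beside it had 6.5, 5.64 and 6.08 FPKM in Jonagold and 21.8, 20.6 and 25 FPKM in Granny Smith, 3.65-fold lower. The other 3 members of the run, which ended at MD17G1223700, were low. MD17G1223400 had 0, 0.6 and 0.227 FPKM in Jonagold and 3.27, 5.2 and 2.34 FPKM in Granny Smith, at least 5.53-fold lower. MD17G1223600 had 0.674, 0.8 and 0.681 FPKM in Jonagold and 2.8, 3.42 and 1.76 FPKM in Granny Smith. MD17G1223700 had 0.27, 1.47 and 1.57 FPKM in Jonagold and 1.94, 2.48 and 2.6 FPKM in Granny Smith, close to the threshold at 2.03-fold. With a minimum mean of 0.5 FPKM in place of 1 FPKM no member remained in a run, since MD17G1223100, with means of 1.09 FPKM in Jonagold and 0.0192 FPKM in Granny Smith, then entered between them.

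Chromosome 8 held the lower run that came next in median ratio, from MD08G1081300 to MD08G1081700. MD08G1081300 had 0.73, 0.26 and 0.737 FPKM in Jonagold and 39.8, 49.7 and 43.6 FPKM in Granny Smith, 65.8-fold lower in Jonagold. MD08G1081400 had 0.283, 0.126 and 0 FPKM in Jonagold and 18, 23.7 and 23.1 FPKM in Granny Smith, at least 52.7-fold lower. These first genes had at most 5 reads in any Jonagold library, and the rest of the run was low in both cultivars. MD08G1081600 had 0.579, 0.516 and 0.752 FPKM in Jonagold and 1.6, 2.3 and 2.7 FPKM in Granny Smith, 3.21-fold lower. MD08G1081700 had 0, 0.333 and 0.378 FPKM in Jonagold and 1.94, 3.59 and 0.975 FPKM in Granny Smith, at least 4-fold lower. Without Granny Smith 2 no member remained in a run, since MD08G1081700 then averaged under 1 FPKM and was no longer kept.

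The run from MD03G1254400 to MD03G1255400 on chromosome 3 followed in median ratio before bounds were applied, and low throughout. MD03G1254400 had 0, 0 and 0.0803 FPKM in Jonagold and 1.49, 2 and 3.42 FPKM in Granny Smith, at least 9.98-fold lower. MD03G1254500 had 0, 0.18 and 0 FPKM in Jonagold and 3.08, 1.94 and 3.23 FPKM in Granny Smith, at least 9.38-fold lower. MD03G1254600 had 0, 0.134 and 0 FPKM in Jonagold and 2.5, 0.994 and 2.45 FPKM in Granny Smith, at least 4.54-fold lower. These genes have consecutive identifiers and at most 2 reads in any Jonagold library. MD03G1255400 had 1.24, 0.748 and 1.25 FPKM in Jonagold and 2.66, 2.84 and 2.65 FPKM in Granny Smith, 2.39-fold lower. With the genes of few reads at their bounds the median log2 ratio was -2.71, against -4.0 with the added 0.1 FPKM alone. The run was lost when any single Granny Smith library was left out, since at least 1 member was then no longer kept.

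The longest lower run had 7 kept genes among 9 listed, from MD15G1111100 to MD15G1112100. MD15G1111500, with the largest ratio, had 0.787, 0.97 and 0.856 FPKM in Jonagold and 8, 11.1 and 10.6 FPKM in Granny Smith, 10.3-fold lower in Jonagold. MD15G1111100, with the smallest, had 2.89, 1.09 and 1.94 FPKM in Jonagold and 5.2, 3.41 and 4.16 FPKM in Granny Smith, 2.1-fold lower. The differences in this run were thus modest beside those on chromosomes 8 and 10. MD15G1111900, the most expressed, had 5.11, 4.22 and 3.31 FPKM in Jonagold and 7.91, 12.5 and 9.91 FPKM in Granny Smith. The other 4 members averaged between 0.652 and 3.51 FPKM in Jonagold and between 2.3 and 7.88 FPKM in Granny Smith. The run was lost without Jonagold 3.

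A lower run of 6 genes on chromosome 1, from MD01G1037400 to MD01G1037900, had 6 consecutive identifiers and ended on genes almost unread in Jonagold. MD01G1037800 was listed at 0 in all Jonagold libraries and had 13.7, 9.42 and 11.5 FPKM in Granny Smith, at least 28.8-fold lower in Jonagold. MD01G1037900 had 0, 0.0824 and 0 FPKM in Jonagold and 7.26, 8.72 and 8.71 FPKM in Granny Smith, at least 92-fold lower. The other 4 were read in every library. MD01G1037700 had 77.8, 104 and 81.4 FPKM in Jonagold and 193, 259 and 196 FPKM in Granny Smith, 2.46-fold lower. MD01G1037600 had 10.8, 15.8 and 14.4 FPKM in Jonagold and 25.2, 34.7 and 25.2 FPKM in Granny Smith, 2.07-fold lower. Both were highest in library 2 of each cultivar. MD01G1037400 had 0.34, 0.332 and 0.548 FPKM in Jonagold and 1.83, 2.81 and 3.25 FPKM in Granny Smith, 5.39-fold lower. MD01G1037500 had 0.984, 0.955 and 1.4 FPKM in Jonagold and 2.6, 2.22 and 3 FPKM in Granny Smith, 2.23-fold lower. The next kept gene, MD01G1038000, turned sharply the other way, with means of 6.62 FPKM in Jonagold and 0.0829 FPKM in Granny Smith. The run was lost without Jonagold 1 and without Granny Smith 2.

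The 6 genes from MD08G1202300 to MD08G1202800 also had consecutive identifiers, and all were read in every library. MD08G1202300 had 2.48, 3.03 and 4.09 FPKM in Jonagold and 8.21, 6.09 and 10.4 FPKM in Granny Smith, 2.53-fold lower in Jonagold. MD08G1202400 had 3.2, 0.395 and 2.69 FPKM in Jonagold and 7.93, 3.64 and 7.87 FPKM in Granny Smith, and MD08G1202500 had 6.03, 2.35 and 4.96 FPKM in Jonagold and 13.8, 7.14 and 12.7 FPKM in Granny Smith. Library 2 was the lowest of both cultivars in MD08G1202400 and MD08G1202500. MD08G1202600 had 4.11, 6.48 and 6.76 FPKM in Jonagold and 11, 12.3 and 13.3 FPKM in Granny Smith, 2.09-fold lower. MD08G1202700 had 3.87, 6.03 and 6.35 FPKM in Jonagold and 19.2, 20.3 and 17.3 FPKM in Granny Smith. MD08G1202800 had 3.61, 4.78 and 4.78 FPKM in Jonagold and 16.3, 15.8 and 15.2 FPKM in Granny Smith, 3.53-fold lower. All folds lay between 2.09 and 3.53, and the run was lost without Jonagold 1 and without Granny Smith 3.

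The lower run with the highest median level, from MD09G1028600 to MD09G1028900 on chromosome 9, depended on several single libraries. MD09G1028900 had 174, 48.4 and 49 FPKM in Jonagold and 338, 353 and 322 FPKM in Granny Smith, 3.73-fold lower in Jonagold. MD09G1028800 had 73.9, 19 and 15.5 FPKM in Jonagold and 149, 151 and 124 FPKM in Granny Smith, 3.91-fold lower. MD09G1028700 had 23.3, 6.36 and 6.52 FPKM in Jonagold and 30, 41.1 and 32.1 FPKM in Granny Smith, 2.84-fold lower. In each of these Jonagold 1 lay far above the other Jonagold libraries. MD09G1028600 had 1.27, 0.458 and 0.6 FPKM in Jonagold and 1.56, 1.13 and 2.43 FPKM in Granny Smith, where the cultivars overlapped. Without Jonagold 2, Jonagold 3 or Granny Smith 3 no member remained in a run.

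All 85 runs are given next by chromosome, each with its first and last identifier, its number of genes and its median log2 ratio, with members that had no more than 3 reads in any library of the lower cultivar set at their bound. The bounds changed the median of 21 higher and 3 lower runs, by up to 1.98 on the log2 scale, and no median came under 1 in size. The 3 runs of chromosome 1 that were higher in Jonagold lay at MD01G1051900 to MD01G1052200 (4 genes, 5.11), MD01G1195000 to MD01G1195500 (4 genes, 5.4) and MD01G1211500 to MD01G1212100 (4 genes, 4.92). Its 2 runs lower in Jonagold were MD01G1028100 to MD01G1029000 (5 genes, -2.8) and MD01G1037400 to MD01G1037900 (6 genes, -1.86). On chromosome 2, 4 runs were higher in Jonagold, namely MD02G1008500 to MD02G1008800 (4 genes, 2.68), MD02G1025500 to MD02G1026300 (8 genes, 3.23), MD02G1050200 to MD02G1052900 (11 genes, 3.05) and MD02G1265000 to MD02G1265300 (4 genes, 1.65). No lower run was found there. Chromosome 3 held 3 runs higher in Jonagold, at MD03G1032900 to MD03G1033300 (5 genes, 3.79), MD03G1073400 to MD03G1073800 (4 genes, 1.46) and MD03G1087100 to MD03G1088100 (4 genes, 2.39). The lower run was MD03G1254400 to MD03G1255400 (4 genes, -2.71). The 4 runs of chromosome 4 that were higher in Jonagold lay at MD04G1014500 to MD04G1015000 (5 genes, 2.17), MD04G1082600 to MD04G1083400 (4 genes, 3.25), MD04G1152200 to MD04G1152600 (4 genes, 1.42) and MD04G1233100 to MD04G1234000 (5 genes, 2.03). It held no lower run. Chromosome 1 thus held the higher runs with the largest medians and chromosome 2 the run of 11 genes.

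On chromosome 5, 9 runs were higher in Jonagold, namely MD05G1046200 to MD05G1047300 (4 genes, 2.13), MD05G1052900 to MD05G1053900 (7 genes, 1.47), MD05G1090500 to MD05G1092900 (5 genes, 3.4), MD05G1106900 to MD05G1107600 (5 genes, 1.63), MD05G1135700 to MD05G1137400 (12 genes, 3.82), MD05G1146300 to MD05G1147100 (7 genes, 1.56), MD05G1147300 to MD05G1148400 (7 genes, 2.64), MD05G1149500 to MD05G1150200 (6 genes, 2.47) and MD05G1282600 to MD05G1283000 (4 genes, 1.97). No lower run was found there. Chromosome 6 held 3 runs higher in Jonagold, at MD06G1027900 to MD06G1028700 (4 genes, 1.5), MD06G1093000 to MD06G1095300 (5 genes, 3.42) and MD06G1213300 to MD06G1213800 (4 genes, 3.31). The lower run was MD06G1038600 to MD06G1039100 (5 genes, -2.7). The 2 runs of chromosome 7 that were higher in Jonagold lay at MD07G1083900 to MD07G1085200 (8 genes, 1.44) and MD07G1094000 to MD07G1094300 (4 genes, 2.39). It held no lower run. On chromosome 8, 2 runs were higher in Jonagold, namely MD08G1056400 to MD08G1056800 (5 genes, 3.55) and MD08G1212200 to MD08G1212500 (4 genes, 2.77). Its 2 runs lower in Jonagold were MD08G1081300 to MD08G1081700 (4 genes, -3.86) and MD08G1202300 to MD08G1202800 (6 genes, -1.46). Chromosome 5 had more members than any other chromosome, 57 in 9 runs, which is 3.95% of its kept genes. On chromosome 7 the 12 members made 0.989% of the kept genes, the lowest share. The chromosomes also differed in how many kept genes were at least 2-fold higher in Jonagold. This held for 18.6% on chromosome 5, the largest share, and for 13.1% on chromosome 7, beside 15.1% of all kept genes. Chromosomes 14 and 15 lay slightly under chromosome 7 in this.

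Chromosome 9 held 4 runs higher in Jonagold, at MD09G1069500 to MD09G1070000 (4 genes, 3.5), MD09G1094400 to MD09G1096100 (4 genes, 3.15), MD09G1131800 to MD09G1133000 (4 genes, 2.18) and MD09G1200600 to MD09G1201600 (6 genes, 3.03). Its 3 runs lower in Jonagold were MD09G1028600 to MD09G1028900 (4 genes, -1.7), MD09G1031100 to MD09G1031500 (4 genes, -1.94) and MD09G1097800 to MD09G1099200 (4 genes, -1.29). The 3 runs of chromosome 10 that were higher in Jonagold lay at MD10G1059400 to MD10G1059700 (4 genes, 2.61), MD10G1060100 to MD10G1060900 (7 genes, 2.41) and MD10G1209300 to MD10G1209600 (4 genes, 4.34). A single lower run lay at MD10G1013800 to MD10G1014500 (4 genes, -4.57). On chromosome 11, 5 runs were higher in Jonagold, namely MD11G1025300 to MD11G1027500 (4 genes, 3.2), MD11G1106900 to MD11G1107500 (4 genes, 3.22), MD11G1231400 to MD11G1231900 (4 genes, 1.34), MD11G1268400 to MD11G1269400 (4 genes, 4.71) and MD11G1312300 to MD11G1313500 (5 genes, 1.68). No lower run was found there. Chromosome 12 held 3 runs higher in Jonagold, at MD12G1038200 to MD12G1038800 (4 genes, 2.12), MD12G1169300 to MD12G1169600 (4 genes, 1.67) and MD12G1182400 to MD12G1183300 (6 genes, 2.79). The lower run was MD12G1171000 to MD12G1171300 (4 genes, -2.14). The alcohol dehydrogenase run was the only lower run of chromosome 10.

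The 3 runs of chromosome 13 that were higher in Jonagold lay at MD13G1027900 to MD13G1028300 (4 genes, 2.47), MD13G1057300 to MD13G1057900 (4 genes, 4.42) and MD13G1269700 to MD13G1271300 (4 genes, 2.54). A single lower run lay at MD13G1133800 to MD13G1134900 (5 genes, -2.0). Chromosome 14 held 1 run higher in Jonagold, MD14G1032600 to MD14G1032900 (4 genes, 2.35). Its 2 runs lower in Jonagold were MD14G1218900 to MD14G1219600 (4 genes, -1.75) and MD14G1222700 to MD14G1223700 (4 genes, -2.33). Chromosome 15 held 3 runs higher in Jonagold, at MD15G1197200 to MD15G1199100 (6 genes, 2.44), MD15G1348300 to MD15G1349000 (4 genes, 2.19) and MD15G1368700 to MD15G1369200 (6 genes, 1.69). Its 3 runs lower in Jonagold were MD15G1111100 to MD15G1112100 (7 genes, -1.68), MD15G1404900 to MD15G1405200 (4 genes, -1.72) and MD15G1415100 to MD15G1415700 (4 genes, -3.08). The 7 runs of chromosome 16 that were higher in Jonagold lay at MD16G1019200 to MD16G1020000 (8 genes, 2.15), MD16G1056700 to MD16G1057000 (4 genes, 3.27), MD16G1145100 to MD16G1145400 (4 genes, 1.96), MD16G1146100 to MD16G1146400 (4 genes, 2.17), MD16G1149200 to MD16G1149800 (6 genes, 1.71), MD16G1156200 to MD16G1156500 (4 genes, 1.58) and MD16G1160000 to MD16G1161400 (9 genes, 4.28). Its 2 runs lower in Jonagold were MD16G1138900 to MD16G1139200 (4 genes, -1.19) and MD16G1169200 to MD16G1169900 (4 genes, -3.03). On chromosome 17, 6 runs were higher in Jonagold, namely MD17G1001700 to MD17G1002300 (5 genes, 1.55), MD17G1020000 to MD17G1020900 (4 genes, 2.2), MD17G1023800 to MD17G1025700 (6 genes, 3.71), MD17G1054800 to MD17G1055800 (4 genes, 1.89), MD17G1207300 to MD17G1207700 (4 genes, 1.31) and MD17G1274600 to MD17G1275200 (5 genes, 3.18). Its lower run was MD17G1222400 to MD17G1223700 (5 genes, -1.75). Chromosome 16 came next to chromosome 5 in the share of its kept genes in runs, 3.87%, with 47 members in 9 runs. Of its kept genes 16.1% were at least 2-fold higher in Jonagold.

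Several runs lay close to one another, with at most 20 kept genes between them, and some of these groups are described here. Each stretch begins and ends on a run, so the rule had already fixed the direction of most genes counted. Among all kept genes 15.1% were at least 2-fold higher in Jonagold and 12.3% at least 2-fold lower. On chromosome 5, 3 runs followed between MD05G1146300 and MD05G1150200, separated by 1 and 6 kept genes. Of the 27 kept genes in this stretch 21 were at least 2-fold higher in Jonagold, 20 of them run members, and 0 were at least 2-fold lower. Between MD10G1059400 and MD10G1060900, 11 of 12 kept genes were at least 2-fold higher, and all 11 were run members. Between MD16G1145100 and MD16G1149800, 16 of 26 kept genes were higher, 14 of them run members, and 1 was lower. Stretches of mixed direction were found as well. On chromosome 9, the stretch from MD09G1094400 to MD09G1099200 joined a higher and a lower run. It had 6 kept genes higher and 7 lower among 15, of which 8 were run members. Chromosome 12 held another, from MD12G1169300 to MD12G1171300, with 6 higher and 4 lower among 13, of which 8 were run members. Between MD14G1218900 and MD14G1223700, 12 of 25 kept genes were lower, 8 of them run members, and 1 was higher.

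**Figure D4:**
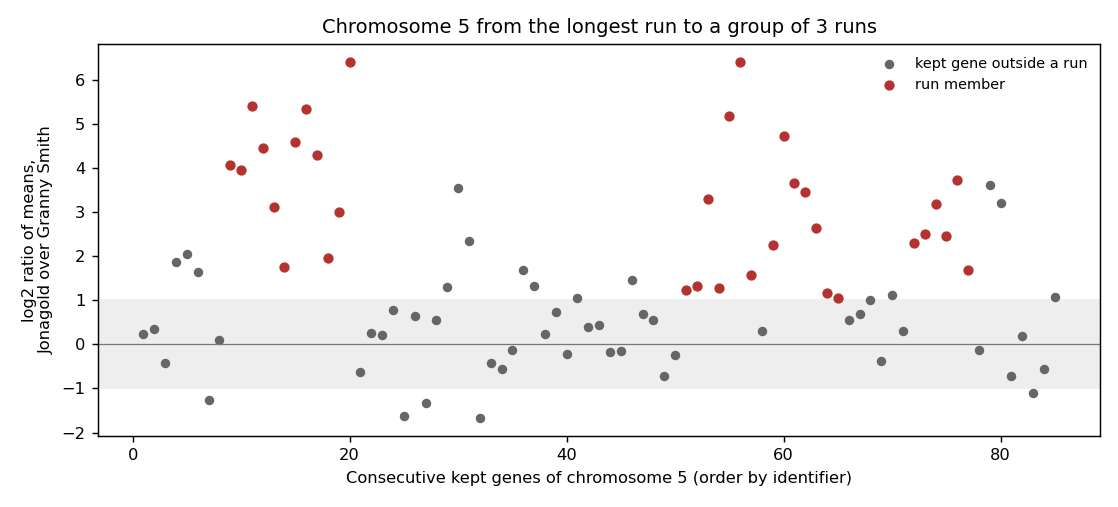
Points are consecutive kept genes of chromosome 5 in order of identifier, from 8 genes before the run of 12 to 8 genes after the group of 3 runs, with the log2 ratio of Jonagold over Granny Smith means on the vertical axis. Run members, in red, lie above the grey band that covers ratios under 2-fold, and the genes between the runs, in grey, lie on both sides of 0.

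The members differed in how far they were apart. The median log2 ratio was 2.49 over the 328 higher members, against 1.85 over the 2739 other kept genes that were at least 2-fold higher. It was -2.0 over the 91 lower members, against -1.66 over the 2417 other kept genes at least 2-fold lower. With the members of few reads at their bounds these medians were 2.41 and -2.0. Within a run, the largest and the smallest log2 ratio differed by a median of 2.54 in higher runs, with a range of 0.32 to 7.09, and by a median of 2.30 in lower runs, with a range of 0.40 to 5.81. The rule fixed the direction that neighbours in a run share, while their folds varied within the run. This spread was not compared with that among other genes past the ratio. Their median level was 4.08 FPKM in the higher runs and 5.72 FPKM in the lower runs, beside 5.37 and 4.27 FPKM for the other kept genes past the ratio in the same directions.

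Members with almost no reads in one cultivar were common. Of the 328 higher members 62 had 3 reads or fewer in every Granny Smith library, and 23 of these were listed at 0 in all of them. That is 18.9%, beside 10% of the 2739 other kept genes past the ratio. Of the 91 lower members 14 had 3 reads or fewer in every Jonagold library, and 3 were listed at 0, which is 15.4% beside 6.62%. In 1 run, from MD10G1209300 to MD10G1209600, every member was of this kind. MD10G1209400 there had 7.27, 6.86 and 7.19 FPKM in Jonagold and 0 in all Granny Smith libraries, and MD10G1209600 had 5.93, 9.05 and 3.42 FPKM in Jonagold and 0.167, 0.16 and 0.0788 FPKM in Granny Smith. This run was singled out after its values were seen. Whether such genes are missing from a cultivar, are silent, or carry sequence that failed to map was not tested.

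The cultivars did not overlap, that is, every library of one lay beyond every library of the other, in 322 of 328 higher members and 86 of 91 lower members. Among all kept genes the share was 30.5% higher and 29.2% lower. On log2(FPKM + 1), limma with Benjamini-Hochberg adjustment called 290 of the higher and 78 of the lower members, beside 12.0% and 9.34% of the 20993 genes tested. The rule had chosen the members by the same contrast, so these counts describe them and carry no more. In 37 of 65 higher runs and 9 of 20 lower runs every member was called.

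Measures that the rule did not use were the spacing of the members and the low genes between them. The order of libraries within a cultivar was not used directly, but a library that stands apart also moves the cultivar mean. Members were packed closely. In 222 of the 334 pairs of neighbours within runs, or 66.5%, the identifiers were consecutive, beside 50.3% of the 19994 other pairs of neighbouring kept genes. No listed gene was skipped in 17 higher and 8 lower runs. With only such unbroken neighbours counted, 38 runs were found, 28 higher and 10 lower, which lay within 37 of the 85 runs, and 26 of the 85 stayed whole.

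Listed genes that were too low to be kept lay between members 227 times in higher runs, and 123 of these were above 0 in at least 1 library. Their means were higher in Jonagold for 85 and lower for 38, so that 69.1% went with the run. In lower runs 17 of the 24 such genes above 0, or 70.8%, had lower means in Jonagold. Over all 12804 listed genes above 0 on chromosomes that were not kept, 49.5% had a higher mean in Jonagold and 50.5% a lower one. With equal FPKM totals the shares were 65.0% in higher runs, beside 43.9% of all such genes, and 70.8% in lower runs, beside 56.1%. Neighbouring genes are not independent of each other and no test was made.

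The rule itself sets what lies beside a run, since a run ends where the next kept gene is under 2-fold in its direction, and the following values are a description. The 130 kept genes next to higher runs had a median log2 ratio of 0.04, with 67 on the side of the run and 63 on the other, and 15 were at least 2-fold lower in Jonagold. The 40 kept genes next to lower runs had a median of -0.18, and 6 were at least 2-fold higher. The steepest turn beside a higher run was at MD02G1025000 on chromosome 2, with means of 0.129 FPKM in Jonagold and 4.21 FPKM in Granny Smith, directly before the 8 higher genes that begin at MD02G1025500.

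The order of libraries within a cultivar was compared between neighbours. The same library was highest among the Jonagold libraries in 41.3% of the 334 pairs in runs and in 36.5% of the other pairs. Among Granny Smith libraries the shares were 37.4% and 35.4%. In pairs of higher runs they were 39.5% for Jonagold and 34.2% for Granny Smith. In pairs of lower runs they were 47.9% for Jonagold and 49.3% for Granny Smith. Jonagold 1 was the highest Jonagold library in 45.6% of members and in 40.9% of all kept genes. No test was made of these shares, which are not free of the rule, since it used the cultivar means. In the run from MD13G1057300 to MD13G1057900, which was singled out after its values were seen, 1 library of each cultivar stood apart in all 4 genes. MD13G1057300 had 75, 17.1 and 14.4 FPKM in Jonagold and 0.184, 0.176 and 6.6 FPKM in Granny Smith. MD13G1057400 had 96.5, 21.7 and 17.1 FPKM in Jonagold and 0.138, 0.331 and 5.67 FPKM in Granny Smith. MD13G1057500 had 20.7, 3.97 and 2.09 FPKM in Jonagold and 0, 0.211 and 0.726 FPKM in Granny Smith. The last gene of the run repeated the pattern at a lower level. MD13G1057900 had 13.9, 3.39 and 2.74 FPKM in Jonagold and 0.188, 0 and 0.399 FPKM in Granny Smith. Jonagold 1 exceeded the mean of the other Jonagold libraries by a median log2 difference of 2.28, and Granny Smith 3 exceeded the mean of the others by 3.06. All 4 genes stayed in a run whichever library was left out.

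**Figure D5:**
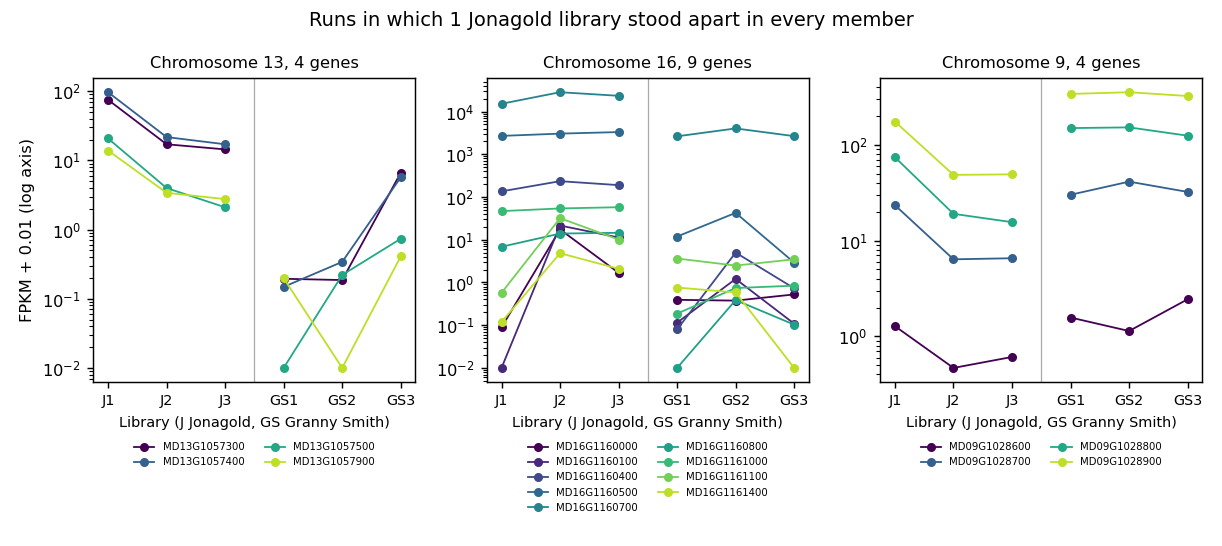
Each line joins the values of 1 gene over the libraries of a cultivar (J1 to J3 Jonagold, GS1 to GS3 Granny Smith), on a logarithmic axis of FPKM with 0.01 added, and the order of libraries carries no meaning. In the chromosome 13 and chromosome 9 runs J1 is the highest Jonagold library in all 4 genes, and in the chromosome 16 run J1 is below the mean of J2 and J3 in all 9.

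The same holds in part for 8 further runs, in which the members of 1 library differed from the other libraries of its cultivar by a median of at least 2-fold. Of the runs described above these were the chromosome 9 run that begins at MD09G1028600, where Jonagold 1 was higher by a median log2 difference of 1.84, the run that begins at MD01G1195000, where it was higher by 1.44, and the run that begins at MD16G1160000. In the others, a Granny Smith library stood apart in the runs that begin at MD04G1082600, MD13G1027900, MD15G1348300 and MD16G1056700, and Jonagold 1 in the run that begins at MD16G1138900.

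Libraries were also left out, with the minimum mean of 1 FPKM applied again to those that remained. Leaving out a library of the higher cultivar lowers that mean, so a gene near 1 FPKM can cease to be kept by this alone. The run that begins at MD03G1087100 was lost whichever Jonagold library was left out. The run that begins at MD03G1254400 was lost whichever Granny Smith library was left out. When each of the 6 libraries was left out in turn, 23 of 65 higher runs and 7 of 20 lower runs stayed whole every time. For 26 higher and 11 lower runs there was at least 1 library without which no member remained in a run. Because the minimum mean was applied again, these counts do not show how many runs rest on a single library. With the 2 other scalings added, 16 higher and 7 lower runs were whole throughout. Among them were the alcohol dehydrogenase run of chromosome 10 and the 3 chromosome 1 runs that begin at MD01G1051900, MD01G1195000 and MD01G1211500. Equal FPKM totals could not break a lower run, and quantile normalization left all 20 lower runs whole. The scalings therefore took nothing from the lower count, which rests on the libraries left out.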

How the data were processed

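RNA from the pulp of 3 Jonagold and 3 Granny Smith fruit pools was sequenced. Per the study's methods, clean reads were mapped to the GDDH13 apple genome and quantified with Cufflinks, and the authors deposited FPKM values per gene. The submitters' processing notes name Bowtie 0.12.2 and mouse genome builds, which cannot belong to apple identifiers, and the sources name different extraction and library kits. Strand use and the treatment of reads shared between copies are not given in the sources used here. The 1702 genes whose identifiers name no chromosome were left out of the search for runs and entered only the limma fit where they passed its filter.

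The members and lists were chosen with earlier results of these data known. Kept genes had a mean of at least 1 FPKM, and runs were found as stated in the report, with Python 3.11.15, numpy 2.4.6, pandas 2.3.3 and scipy 1.17.1. Whole reads were recovered as the smallest whole numbers that fit all libraries of a gene, up to a divisor they share. Floors of 3 reads cover counting error only. limma 3.58.1 in R 4.3.3 was fitted to log2(FPKM + 1) over all genes past its filter and was tested on simulated data.

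Every run was named by its first and last gene. Values in all libraries were given for the 3 longest runs, the 3 runs with the largest median log2 ratio and the run with the highest median level in each direction, and for every run with a gene the study names. In runs of more than 6 genes this held for the members with the largest ratio, the smallest ratio and the highest mean. Runs described beyond this rule are stated to have been chosen after their values were seen. The alternatives were other minimum means, offsets, ratios, run lengths and scalings, runs with no listed gene skipped, a replicate block and each library left out.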

Additional observations from a re-analysis of the deposited data

How the results depend on the processing

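In the order of all runs, genes in runs, higher runs and lower runs, a minimum mean of 2 FPKM gave 50, 244, 37 and 13, no filter gave 183, 871, 136 and 47, a ratio of 1.5 gave 220, 1068, 142 and 78, and a ratio of 3 gave 40, 195, 31 and 9. Runs of at least 3 genes numbered 264 with 956 genes, 182 higher and 82 lower. Runs of at least 5 genes numbered 34 with 215 genes, 27 higher and 7 lower. With no listed gene between members there were 38 runs with 168 genes, 28 higher and 10 lower. An offset of 1 FPKM gave 56 runs with 276 genes, 11 of them lower, and a minimum mean of 0.5 FPKM gave 31 lower runs. Equal FPKM totals turned the balance of directions, with 34 higher and 70 lower runs, and limma then called 1772 genes higher and 3426 lower in Jonagold. The cause was not tested. Quantile normalization left more higher than lower runs, 59 and 28, and limma then called 2336 genes higher and 2169 lower. With single libraries left out, there were 74 to 92 runs with 351 to 454 genes, 52 to 75 higher and 15 to 23 lower. limma called 2404 to 2632 genes higher and 1835 to 2098 lower, with 336 to 358 members called, and 408 to 414 members did not overlap.

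Deviations of same-numbered libraries correlated at 0.17, 0.28 and -0.03, and those of differently numbered libraries at between -0.25 and 0.11. Whether the replicate numbers pair the samples cannot be told from these values. With the replicate block, limma called 2534 genes higher and 1967 lower, beside 2515 and 1960 without it, and 368 members in either fit. The scaling of the order of libraries, and of the low genes between members, was chosen after seeing the data. Members near 3 reads limit how exactly a fold can be stated, and the number of libraries limits what leaving out 1 of them can show.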
